A study of Nematostella vectensis with 9 samples.

Results

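A set of 92 gene models of the starlet sea anemone Nematostella vectensis stood lower in embryos injected with a morpholino against NvBMP2/4 than in 2 other groups of injected embryos. The members were selected on their measured levels, among 21946 models with a count in at least 1 library. A level is given in CPM, the count of a model per 1000000 counts on all gene models of its library. A member had its highest value over the 3 morpholino libraries below the lowest of the other 6 libraries, and a dextran mean of at least 5 CPM. Its morpholino mean was at least 1.5-fold below both other means, and its DnTCF mean lay within 1.3-fold of the dextran mean. Every library and every contrast entered this choice, so the differences below are a description. Calls from tests on the same contrasts are tied to the choice, and their counts are given only as background.

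The study compared whole embryos at 24 h after fertilization, raised at 17 °C, with 3 libraries in each group. The controls received dextran, an inert carrier, the second group a morpholino (an antisense oligonucleotide) against NvBMP2/4, and the third group RNA for a dominant negative NvTCF (DnTCF). The labels name no control morpholino or control RNA, so the effect of injected nucleic acid as such cannot be told apart from that of either target. The design text calls the libraries of a group biological replicates, but the number of embryos in each and their parents are not stated. Whole embryos were used, so fewer cells of a type and less RNA per cell cannot be told apart.

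BMP ligands are secreted proteins that bind receptor kinases at the cell surface, whose SMAD proteins then enter the nucleus and change transcription. In Nematostella, BMP signalling patterns the directive axis, which runs across the oral-aboral axis. TCF is the DNA-binding partner of β-catenin in the canonical Wnt pathway, which acts in oral-aboral patterning and in endomesoderm formation, and a dominant negative TCF blocks its transcriptional output. The title of the series sets these pathways against each other, and the members are models with a lower level in the morpholino group and a DnTCF mean near the control.

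The models carry JGI Nemve1 numbers. None of the 92 numbers or prediction names matched the 38762 entries of the RefSeq gene table for assembly jaNemVect1.1 by locus tag, symbol or synonym. The members are therefore described by number, without gene names, functions or sequences, and no pathway list could be counted among them. The level of NvBMP2/4 itself was not analysed here, so the knockdown was not checked.

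The shallowest library, DnTCF replicate 2, held 1936858 counts on gene models and the deepest, DnTCF replicate 1, held 5994290, while dextran replicate 2 was similarly shallow at 1948761. Morpholino replicate 1 stood apart from the other libraries. Among the 11240 models with a dextran mean of at least 5 CPM, its median ratio to the dextran mean was 0.626, against 0.893 to 1.07 in the other 8 libraries. It also held the most mitochondrial counts, 498 CPM relative to the model counts, against 278 and 60.4 in morpholino replicates 2 and 3 and 8.72 to 75.6 in the dextran and DnTCF libraries. Dextran replicate 3 had 87.8% of its counts without a reference sequence, against 39.6% to 58.9% elsewhere. The group level, the fold sizes and the count of members are given with and without these libraries.

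As a group, the members made up about 0.504% of the model counts in dextran embryos. Their summed level was 4566, 5093 and 5461 CPM in the dextran libraries and 4998, 4758 and 4616 CPM in the DnTCF libraries. In the morpholino libraries it was 1568, 3271 and 3437 CPM. Dextran and DnTCF overlapped, and morpholino replicate 1 was the lowest library by far. The means were 5040 ± 450 CPM with dextran, 4791 ± 193 with DnTCF and 2759 ± 1034 with the morpholino (SD, n = 3 each), a morpholino level of 0.547 of dextran and 0.576 of DnTCF. With morpholino replicates 2 and 3 alone, the level was 0.665 of dextran, and without dextran replicate 3 it was 0.571.

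Each member was set against its own dextran mean. The median ratio over the members was 0.323 in morpholino replicate 1, 0.652 in replicate 2 and 0.685 in replicate 3, whereas the dextran and DnTCF libraries had medians from 0.897 to 1.00. The wider set of models with a dextran mean of at least 5 CPM was also low in replicate 1, while its median ratio was 1.03 in replicate 2 and 0.952 in replicate 3. Relative to that wider set within the same library, the members stood at 0.517, 0.630 and 0.719 in the morpholino libraries. They stood at 0.905, 1.00 and 0.905 with DnTCF and at 0.90, 1.01 and 1.08 with dextran. The members were low against other models in all 3 morpholino libraries, most so in replicate 1. The rule selected for low values in these libraries, so this describes the choice and adds no support to it.

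**Figure D1:**
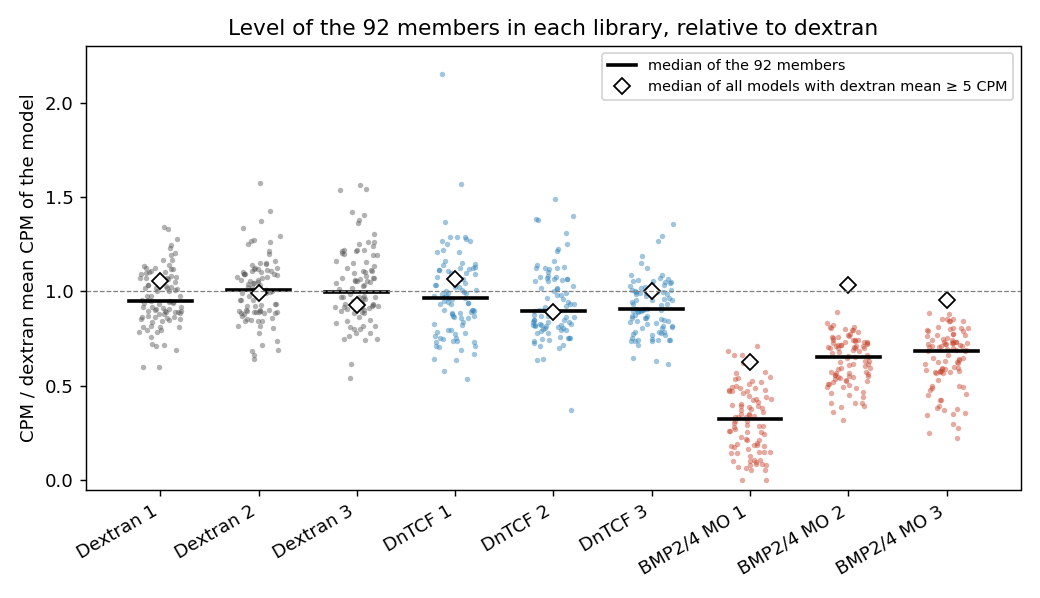
Each point is 1 of the 92 members in 1 library, as its CPM divided by its own mean CPM in the dextran libraries. Black bars are medians over the members and diamonds are medians over all 11240 models with a dextran mean of at least 5 CPM, which stand at 0.626 in morpholino replicate 1 where the members stand at 0.323.

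Fold sizes were mostly modest. The dextran mean was between 1.5 and 5.02 times the morpholino mean, with a median of 1.81, and the DnTCF mean was between 1.5 and 5.43 times the morpholino mean, with a median of 1.71. Without morpholino replicate 1 these medians were 1.54 and 1.46, and without dextran replicate 3 the first was 1.80. Of the 92 members, 34 were at least 2-fold below dextran and 15 at least 2-fold below both other groups. These counts were 13 and 5 without morpholino replicate 1, and 28 and 14 without dextran replicate 3. The DnTCF mean was below the dextran mean for 67 members and above it for 25, with a median ratio of 0.949. By dextran level, 13 members stood under 10 CPM, 53 from 10 to under 50 CPM and 26 at 50 CPM or more. These are 14.1%, 57.6% and 28.3% of the members, beside 16.9%, 49.5% and 33.6% of all models with a dextran mean of at least 5 CPM.

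Model 208384 showed the largest difference among the members. It stood at 19.1, 23.6 and 23.5 CPM with dextran and at 1.23, 7.01 and 4.95 CPM with the morpholino. The DnTCF libraries spread widely around the dextran level, at 47.5, 8.26 and 15.8 CPM, and the lowest of them was close to the highest morpholino value. The DnTCF mean of 23.9 CPM was near the dextran mean of 22.1 CPM only through DnTCF replicate 1. The other DnTCF libraries lay below every dextran library, so a level unchanged with DnTCF rests on that library. The dextran mean was 5.02 times the morpholino mean, and the log2 fold change in the edgeR model was -2.28 (SE 0.62). An SE of a log2 fold change is approximate here, its size divided by the square root of the F statistic of edgeR's test. The 95% counting intervals of the nearest libraries, 4.79 to 9.89 CPM in morpholino replicate 2 and 4.72 to 13.4 CPM in DnTCF replicate 2, overlapped. Counting intervals here are exact Poisson intervals and cover counting error only.

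The other 5 members with the lowest morpholino-to-dextran ratio had dextran means between 6.52 and 22.5 CPM. Model 114158 stood at 12.8, 13.3 and 8.71 CPM with dextran, 9.01, 12.4 and 9.11 with DnTCF, and 0.984, 5.69 and 4.95 with the morpholino. Its log2 fold change against dextran was -1.52 (SE 0.51), and its lowest control library was well above its highest morpholino library. Model 89632 stood at 13.9, 16.9 and 13.5 CPM with dextran, 9.84, 13.9 and 11.1 with DnTCF, and 1.23, 9.64 and 4.43 with the morpholino, where replicate 2 nearly reached DnTCF replicate 1. Model 208975 stood at 23.8, 19.0 and 24.8 CPM with dextran, 22.7, 17.6 and 20.9 with DnTCF, and 1.23, 12.3 and 13.3 with the morpholino. Its morpholino replicate 1 lay far below the other morpholino libraries, which were similar to each other. Model 172825, at 5.76, 10.3 and 3.55 CPM with dextran and 7.34, 4.65 and 6.44 with DnTCF, had a dextran replicate 3 close to its morpholino libraries (0.984, 3.29 and 3.13 CPM).

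Model 108621 had the widest gap between the groups, with similar values in the 3 morpholino libraries. It stood at 2.95, 2.41 and 2.34 CPM with the morpholino, 5.51, 6.20 and 5.11 with DnTCF, and 5.4, 6.16 and 8.38 with dextran. Its highest morpholino value was 0.578 of its lowest value elsewhere, and its log2 fold change against dextran was -1.20 (SE 0.50). Model 131857 stood at 1.97, 3.50 and 3.65 CPM with the morpholino, lowest in replicate 1. Its other 6 libraries lay at 5.11 to 7.84 CPM. Model 206632 stood at 2.46, 3.29 and 3.13 CPM against 4.50 to 9.67 CPM, and model 225062 at 2.71, 2.63 and 1.56 CPM against 3.61 to 6.48 CPM. The 9.67 CPM of model 206632 was dextran replicate 3, beside 4.50 and 4.62 CPM in dextran replicates 1 and 2. Its log2 fold change against dextran was -0.98, but -0.45 without dextran replicate 3 and -1.23 without dextran replicate 1. In model 184485 the morpholino libraries (3.69, 8.32 and 5.73 CPM) varied more, and the others lay between 11.3 and 20.3 CPM. The 20.3 CPM was dextran replicate 3. The log2 fold change of model 184485 against dextran was -1.22, but -0.83 without dextran replicate 3 and -1.43 without dextran replicate 1. In models 108621 and 225062 the lowest library was morpholino replicate 3, not replicate 1.

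**Figure D2:**
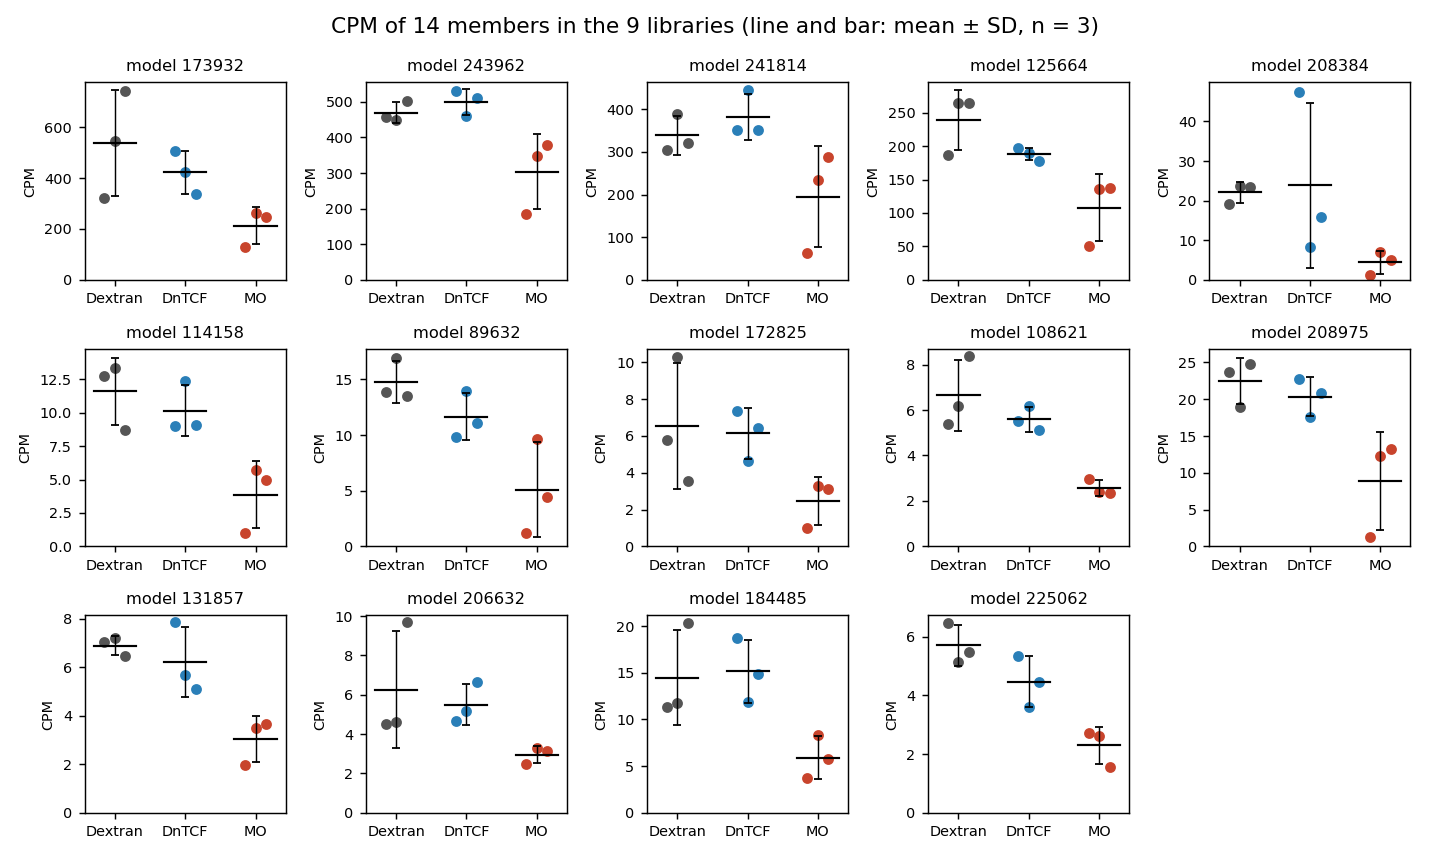
CPM (linear axes that start at 0) of the 14 members with the highest dextran level, the lowest morpholino-to-dextran ratio or the widest gap, 1 panel each. Points are libraries in replicate order, and lines with bars are mean ± SD over 3. All morpholino points lie below all other points in each panel, which the choice of members fixed, and morpholino replicate 1 is the lowest of the 9 points in 12 of the panels.

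Among the 4 members with the highest dextran mean, the counting intervals of the nearest libraries were apart in 3. The rule had fixed the order of these libraries, and high counts narrow the intervals, so the count of 3 is a description only. Model 173932, the member with the highest dextran mean, stood at 323, 547 and 740 CPM with dextran, 507, 424 and 338 with DnTCF, and 130, 264 and 246 with the morpholino. The dextran libraries alone spread more than 2-fold, and the morpholino libraries stayed below all of them. The log2 fold change against dextran was -1.27, but -0.92 without dextran replicate 3 and -1.57 without dextran replicate 1. The counting interval of morpholino replicate 2 (249 to 279 CPM) ended below that of dextran replicate 1 (308 to 338 CPM). Model 125664 stood at 187, 264 and 265 CPM with dextran, 197, 189 and 178 with DnTCF, and 50.7, 135 and 138 with the morpholino (log2 fold change against dextran -1.09, SE 0.32). Its DnTCF libraries were nearly even, with an SD of 9.41 CPM.

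Model 243962 was even outside the morpholino group, at 458, 448 and 502 CPM with dextran and 531, 460 and 510 with DnTCF. Its morpholino libraries stood at 184, 348 and 379 CPM, so that replicates 2 and 3 were closer to the controls than to replicate 1. Model 241814 stood at 304, 390 and 322 CPM with dextran, 350, 444 and 350 with DnTCF, and 62.7, 234 and 289 with the morpholino, where replicate 3 was just below dextran replicate 1 and their counting intervals overlapped. For 4 members in all, models 173932, 125664, 243962 and 245344, the counting intervals of the highest morpholino library and the lowest other library did not overlap. For the other 88 they did. The same comparison was not made over all models. The 4 held 527 to 1455 counts in the highest morpholino library, and counting intervals narrow with high counts. Of these only model 173932 still met the rule without morpholino replicate 1. The lowest count of a member in a dextran or DnTCF library had a median of 44 over the members, and it was under 20 for 17 of them.

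Most of the members were lowest in a single library. Morpholino replicate 1 held the lowest of the 3 morpholino values for 75 of the 92 members (81.5%), replicate 3 for 12 and replicate 2 for 5. Over all models with a dextran mean of at least 5 CPM the share for replicate 1 was already 62.7%. In 46 members (50%) replicate 1 was at least 2-fold below both other morpholino libraries, beside 34.6% of those models. Their median ratio to dextran was 0.178 in replicate 1 and 0.699 and 0.713 in replicates 2 and 3. In 16 members the 3 morpholino libraries lay within 1.5-fold of each other, with median ratios of 0.516, 0.580 and 0.572. These are 17.4% of the members, beside 18.1% of the wider set, a share near the background. The remaining 30 were between these, at 0.418, 0.634 and 0.625. These classes were drawn after the values were seen.

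In 3 members, which were also singled out after their values were seen, morpholino replicate 1 was at least 10-fold below both other morpholino libraries or held no count. The share of all models with such values was not computed, so they cannot be called particular to the members. Model 201338 had 0 counts in replicate 1, and 28.9 and 22.9 CPM in replicates 2 and 3. In replicate 1 a level of 0.738 CPM is 3 counts, a 1-sided upper limit for a count of 0, unlike the 2-sided counting intervals above. The model stood at 28.9 to 44.5 CPM in the other 6 libraries, so that replicate 2 and DnTCF replicate 2 were practically equal. Model 230222 stood at 1.97 CPM in replicate 1, 26.1 and 25.8 in replicates 2 and 3, and 27.7 to 39.8 elsewhere. Model 108180 had 0 counts in replicate 1, 3.72 and 4.43 CPM in replicates 2 and 3, and 4.66 to 8.78 elsewhere. Without replicate 1, models 201338 and 230222 no longer met the rule and model 108180 still did. Replicate 1 also had the lowest scaling factor (0.732, against 0.953 to 1.12 in the other libraries) and the mitochondrial counts given above, and their part in these values was not tested.

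Without morpholino replicate 1, 34 of the 92 members still met the rule, and 17 other models came to meet it. The 58 members that no longer did so failed a fold condition, 44 of them against dextran and 52 against DnTCF. Their median ratio to dextran was 0.314 in replicate 1 and 0.715 in the mean of replicates 2 and 3. For the 34 that still met the rule these medians were 0.411 and 0.533. All 6 members with the lowest morpholino-to-dextran ratio and all 6 with the widest gap were among the 34, together with model 173932. Models 125664, 241814 and 243962 were not. Replicates 2 and 3 lay within 1.5-fold of each other for 80 of the 92 members, and the share over all models was not computed.

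**Figure D3:**
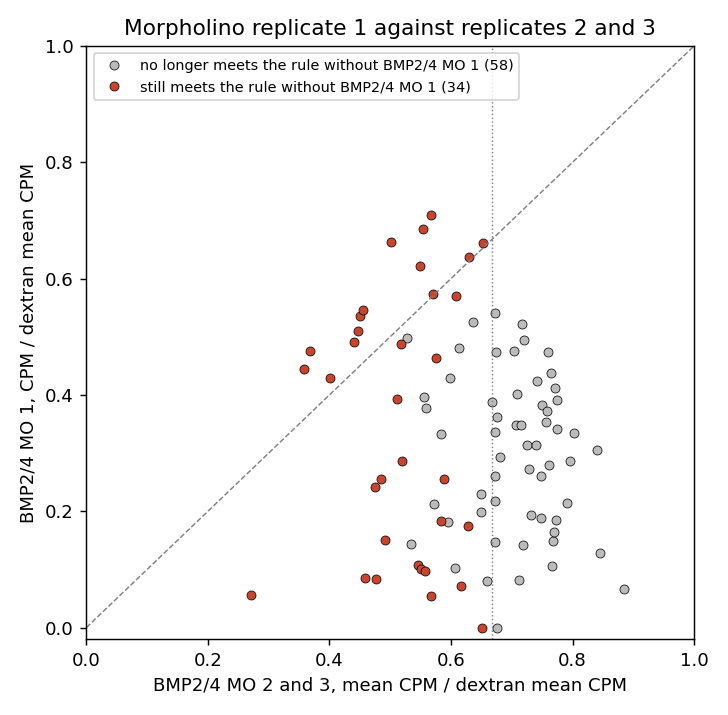
Each point is a member, with its mean CPM in morpholino replicates 2 and 3 (x axis) and its CPM in morpholino replicate 1 (y axis), both divided by its dextran mean. The dashed line marks equal ratios and the dotted line a ratio of 1/1.5; most points lie below the dashed line, and the 34 members in red still met the rule without replicate 1.

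The set also depended on how libraries were scaled. With TMM scaling, which uses the bulk of models to set library sizes and raises the values of morpholino replicate 1, 55 models met the rule, 43 of them members. The 49 members that dropped out failed the condition of no overlap in 30 cases, the fold against DnTCF in 27, the fold against dextran in 16 and the DnTCF window in 4, with some failing more than 1. With DESeq2 size factors 39 of the members met the rule and with upper-quartile scaling 45, and 39 did so under all 3 of these scalings. Members that met the rule under all 3 scalings and also without morpholino replicate 1 numbered 16, with a median morpholino-to-dextran ratio of 0.406 and dextran means between 6.26 and 43.6 CPM. They include the 6 with the lowest ratio, and of the 6 with the widest gap all but model 225062. In these 16 the median ratios were 0.163, 0.526 and 0.514 in the 3 morpholino libraries, and replicate 1 was at least 2-fold below both others in 10.

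**Figure D4:**
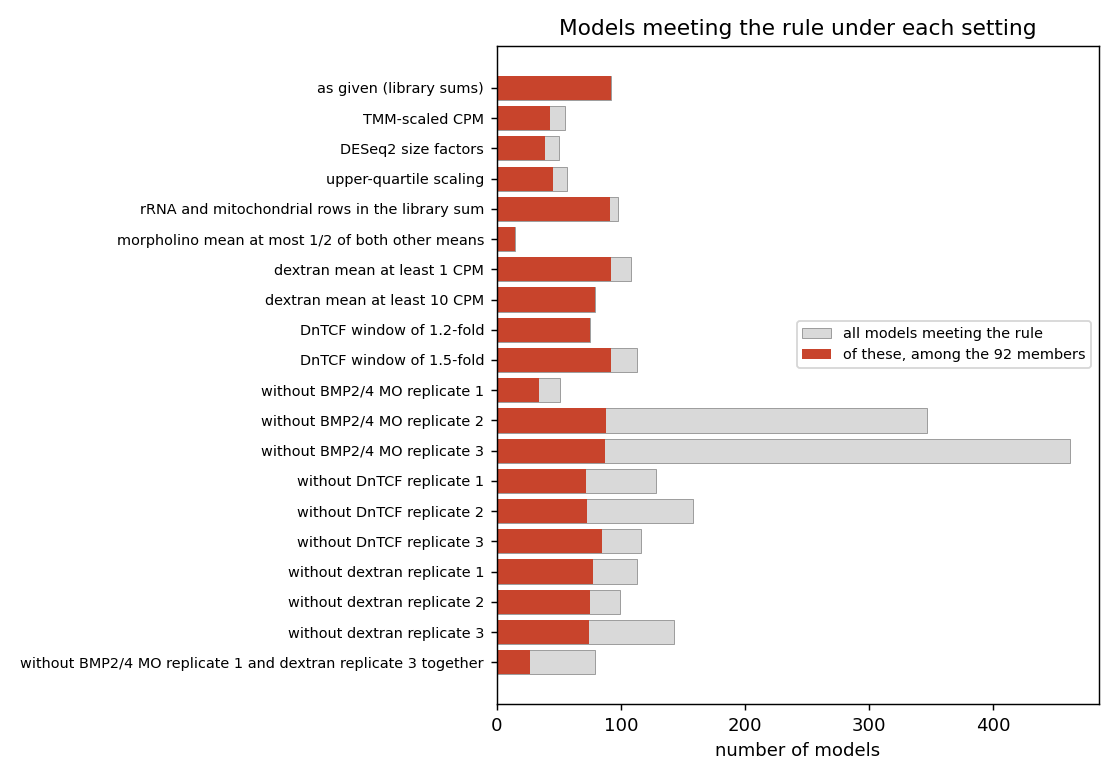
Bars give the number of models that met the rule under each setting, and the red part is the number of these that are among the 92 members. Leaving out morpholino replicate 1 left 34 members, TMM scaling 43, and leaving out morpholino replicate 2 or 3 raised the total to 347 and 462.

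The count of 92 also moved when single libraries were left out. It was 51 without morpholino replicate 1, 347 without replicate 2 and 462 without replicate 3, so that replicates 2 and 3 each kept out many models that met the rule on the remaining libraries. It was 158 without DnTCF replicate 2 and 143 without dextran replicate 3, and 79, of which 27 were members, without both morpholino replicate 1 and dextran replicate 3. Among models with a dextran mean of at least 5 CPM, the morpholino libraries lay below all other 6 for 239, or 2.13%, and this condition was the narrowest of the rule. A further 366 models met every other condition and failed only that one.

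The thresholds cut through a continuous range. The member nearest the condition of no overlap was model 201338, with a highest morpholino value 1.00 times the lowest other value to 3 digits, and the first model outside was 91231 at the same rounded ratio. In 52 members the highest morpholino value was within 10% of the lowest other value. At the fold limits, model 101837 was inside with a morpholino mean of 0.664 of dextran and model 236029 outside at 0.668, and against DnTCF model 44064 was inside at 0.665 and model 245478 outside at 0.670. The DnTCF window was met by model 138673 at a 1.3-fold difference and missed by model 158694 at 1.33-fold. The lowest dextran mean of a member was 5.70 CPM in model 225062, and model 104154 fell short at 4.49 CPM.

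All 92 members passed the filter on low counts and entered the tests over 13559 models, which are given as background since the rule used the same contrasts. In edgeR's quasi-likelihood test with Benjamini-Hochberg adjustment, 0 members and 0% of all models were called lower with the morpholino than with dextran, and 0 members and 0% lower than with DnTCF. At an unadjusted p under 0.05, 36 members were lower than dextran, beside 4.76% of all models, and 20 were lower than DnTCF, beside 0.664%. DESeq2's Wald test called model 208384 alone lower than dextran, beside 0.826% of all models, and no member lower than DnTCF, beside 0.00738%. Limma-voom called 0 members in either comparison. The median log2 fold change of the members was -0.78 against dextran, -0.67 against DnTCF and -0.09 for DnTCF against dextran, beside medians over all tested models of 0.07, 0.03 and 0.01.

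A mirrored rule, for models higher with the morpholino than in both other groups, held 104 models. Its minimum of 5 CPM applied to the morpholino mean in place of the dextran mean, so the sets had unlike level filters. Morpholino replicate 1 was the most extreme morpholino library in 71 of these, beside 75 of the 92 members. Without that library 63 of the 104 still met their rule (60.6%), beside 34 of the 92 members (37.0%). How often replicate 1 was the highest morpholino library over all models was not computed. Whether the shares of the sets differ was not tested.

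The prediction names hold a property the rule did not use. Names that start with estExt (34 members) or fgsh_est (2 members), which JGI gave to predictions extended with or built on expressed sequence tags, made up 36 of the 92 members (39.1%), beside 48.1% of the 11240 models with a dextran mean of at least 5 CPM. The sets were not matched for level, and a difference between these shares was not tested. The scaffold number is also part of each name. The members, 0.819% of the models with a dextran mean of at least 5 CPM, lay on 69 scaffolds. Of these, 53 held 1 member, 10 held 2, 5 held 3 and 1 held 4. Scaffold 99 held 4 of its 33 models at that level, models 110216, 168119, 208975 and 243828. The scaffolds with 3 members were 5 (of 169 models), 6 (of 118), 89 (of 44), 91 (of 49) and 103 (of 48). Distances between models on a scaffold were not used here, and models with near-identical copies or overlapping exons may share reads.

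Within groups the members varied less than other models where the groups were even. The median coefficient of variation over 3 libraries was 16.4% with dextran and 15.1% with DnTCF, beside 24.0% and 22% for all models with a dextran mean of at least 5 CPM. With the morpholino it was 39.4%, beside 43.4%. A rule that demands no overlap between groups favours models with little spread, so these values describe the choice.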

How the data were processed

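The members and lists were chosen with earlier results of these data known. Per the labels' protocols, poly-A mRNA was enriched from about 1 µg of total RNA before sequencing of single-end 50 bp reads. The submitters' processing notes name FastQC and Bowtie2 2.2.0. The deposited values are raw counts per reference sequence, and how reads were counted (program, strand, several matches) is not given in the sources used here. A sequence missing from a library's table was entered as 0. The row without a sequence name (39.6% to 87.8% of counts) and the rRNA and mitochondrial rows stayed out of library sums.

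CPM used library sums over gene models. Counts were fitted with edgeR 4.0.16 in R 4.3.3 on all 9 libraries (filterByExpr, TMM, quasi-likelihood test, 6 residual degrees of freedom, Benjamini-Hochberg adjustment over 13559 models, threshold 0.05). The fit was also run on simulated counts. Those held larger changes than the members show and no outlying library, so that run does not test the fit for these members. Alternatives used DESeq2 1.42.0, limma 3.58.1, other scalings and each library left out in turn. Model numbers rose with scaffold number in 10 of 11 series of prediction names, which was the check of the scaffold reading. The models named in the text are the 4 members with the highest dextran mean, the 6 with the lowest ratio, the 6 with the widest gap and those nearest each threshold; others are marked where they occur. For libraries of different groups with equal replicate numbers, deviations from the group means had correlations from -0.21 to 0.32, over 0.1 in 3 of 9 pairs. These were not set against pairs with unequal numbers, so they do not settle whether such libraries deviate together. The labels give no pairing, and the libraries were not paired. The design text calls the replicates biological, but separate cultures are not stated, and the spread may be partly technical.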

Additional observations from a re-analysis of the deposited data

Results flagged for a closer look

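Counts on ribosomal RNA lie outside the gene models and were above every dextran library in each morpholino library. The 28S sequence had 3549 ± 1213 CPM in the dextran group, 6318 ± 1960 CPM in the DnTCF group and 8211 ± 2748 CPM in the morpholino group (SD, n = 3 each, relative to model counts). The 18S sequence had 1995 ± 942, 3188 ± 1289 and 6049 ± 2658 CPM in the same order. These rows were not part of the library sums behind the members' CPM. Adding them together with the mitochondrial row to the sums gave 98 models, 91 of them members, and the rRNA rows were not added alone. Their relation to the members was not tested.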

How the results depend on the processing

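The count of members was 55 with TMM scaling, 50 with DESeq2 size factors, 57 with upper-quartile scaling and 15 with a fold of 2 in place of 1.5, and it ran from 51 to 462 over the 9 libraries left out in turn. It stayed within 1.5 times 92 with a dextran minimum of 1 or 10 CPM (108 and 79), a DnTCF window of 1.2-fold or 1.5-fold (75 and 113), and the rRNA and mitochondrial rows in the sums (98). Leaving out morpholino replicate 1 and dextran replicate 3 together, an alternative chosen after seeing the data, gave 79. Members at least 2-fold below dextran numbered 13 without morpholino replicate 1 and 28 without dextran replicate 3, and those at least 2-fold below both groups 5 and 14, which were also checked after seeing the data. Members called lower than dextran numbered 1 by DESeq2 and 0 in each other fit that was run. The median log2 fold change of the members ran from -0.94 to -0.68 against dextran and from -0.81 to -0.58 against DnTCF over the libraries left out in turn. For DnTCF against dextran it ran from -0.16 to -0.029, and was -0.16 without DnTCF replicate 2 or dextran replicate 1. Scaling by library totals moved the median of all models against dextran from 0.07 to -0.04 and that of the members from -0.78 to -0.86, so that the members lay 0.85 and 0.82 below the median of all models on the log2 scale. With the replicate number as a block, a pairing the labels do not give, the medians were -0.86, -0.71 and -0.09 and 0 members were called. The 14 named members had 196 log2 fold changes against dextran under these settings. Of these, 188 moved by less than the SD of the morpholino libraries and 0 reversed. The 8 that moved by more were in models 173932, 184485 and 206632. That SD includes morpholino replicate 1, which stood apart, so large moves could fall within it. Without replicate 1, model 241814 moved from -0.76 to -0.42 and model 208975 from -1.32 to -0.88, both within it. Model 89632 moved from -1.49 to -2.21 without morpholino replicate 2, also within it. The count of 188 therefore does not show that the values are stable. The causes were not tested.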
